A study of Mus musculus with 6 samples.

Results

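The genes described here are 9 components of the epithelial tight junction measured by bulk RNA-seq in mouse corneal epithelial cells. They are the claudins *Cldn1*, *Cldn3*, *Cldn4*, *Cldn7*, *Cldn12* and *Cldn23*, the transmembrane proteins occludin (*Ocln*) and JAM-A (*F11r*), and the scaffold ZO-1 (*Tjp1*). They were selected by gene symbol from the 17784 genes in the table, and all 9 passed the filter for low counts that 12999 genes passed. They were chosen from the comparison of the groups below, so their fold changes are given as a description with no test. The study deleted *Ptch1*, the receptor that restrains Hedgehog signaling, in corneal keratocytes and asked what followed in the epithelium above them. One group held 3 samples from Prrx1-creERT;Ptch1 mice, titled KO, and the other held 3 samples from ctrl mice, titled WT. They are called Ptch1-ablated and control below. Prrx1-CreERT is a tamoxifen-dependent recombinase that the study describes as active in keratocytes and also in corneal endothelial cells, so the deletion was aimed at layers beneath the epithelium that was sequenced. Per the labels, the mice were 10 weeks old, all 6 samples carry the same entry of 3 tamoxifen doses and 2 months, and the epithelium was released with EDTA. The floxed *Ptch1* line had been backcrossed to C57BL/6, and neither the full genotype of the ctrl mice nor the number of animals in a sample is given in the labels.

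Tight junctions seal the space between neighboring epithelial cells near their apical border. Claudins are small membrane proteins that polymerize into the sealing strands, and the mixture of claudins sets which ions and solutes pass. Occludin, a MARVEL protein, sits in the same strands, and JAM-A, an immunoglobulin-like adhesion protein, is found at the same junctions. Most claudins end in a short tail motif that binds the PDZ domains of ZO scaffolds such as ZO-1. These scaffolds tie the strands to actin. In the cornea, the superficial epithelial cells carry the junctions that keep tears and microbes out of the stroma.

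The 6 samples held 20296741 to 20625813 expected counts. Replicates were distinct libraries: the chi-square between the counts of any 2 in a group, divided by its degrees of freedom, was 10.5 to 40.0, above sampling noise. Corneal keratin *Krt12* stood at 44025 to 48396 TPM (a transcript level scaled for transcript length and library size) in control samples and at 37107 to 49487 in Ptch1-ablated samples, and *Pax6*, a transcription factor of eye epithelia, at 409 to 433 in control and 302 to 386 in Ptch1-ablated samples. Of the 6 corneal epithelial markers, whose summed TPM was 104687 to 113173 in control and 88091 to 112610 in Ptch1-ablated samples, only *Clu*, which encodes the chaperone clusterin, passed the edgeR test. It stood at 448, 482 and 447 TPM in control and at 959, 872 and 842 in Ptch1-ablated samples (log2 fold change 1.00, adjusted p = 0.00376, edgeR). Stromal markers, 9 of 10 in the table (*Lum* was not analysed here), summed to 9.95 to 55.9 TPM in control and 7.86 to 12.3 in Ptch1-ablated samples, with *Kera* at 0.07 or less. Vessel markers, 4 of 5, summed to at most 2.29 TPM, and 8 leukocyte markers to 125 to 166 in control and 153 to 207 in Ptch1-ablated samples, with *Ptprc* at 0.20 or less. Most of the leukocyte sum came from *Itgam* and *Cd68*. *Itgam* stood at 67.0 to 101 TPM in control and 99.5 to 129 in Ptch1-ablated samples, and *Cd68* at 45.3 to 50.1 and 48.8 to 65.5. Neither passed the edgeR test (adjusted p = 0.0759 and 0.213). On the first principal component, Ptch1-ablated replicate 1 lay apart at 53.8, while replicates 2 and 3 lay at 19.2 and 20.03 and the control samples between -34.9 and -27.4. *Ptch1* itself (gene 19206) stood at 7.31, 9.70 and 10.2 TPM in control replicates 1, 2 and 3 and at 5.28, 6.33 and 7.01 in Ptch1-ablated replicates 1, 2 and 3. Its log2 fold change was -0.51 (SE 0.13, adjusted p = 0.0401, edgeR's quasi-likelihood test), which is a value from epithelium and not from the targeted keratocytes. This call passed in 1 of the 6 fits that left out a sample, without control replicate 1, and the adjusted p in the other 5 was 0.0564 to 0.143. With limma on log2 TPM the adjusted p was 0.0781 to 0.134. In such bulk samples, a change in the number of cells that express a gene and a change in its RNA per cell cannot be told apart.

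A few promoters are shown first because they belong to the genes with the highest and the lowest fold changes of the set, *Cldn1* and *Cldn4* at the top and *Cldn3* at the bottom. Each is the 250 bases before the transcription start, 5′ to 3′ on the strand of the gene, from RefSeq on GRCm38.p6. *Cldn1* lies on chromosome 16 (chr16:26371840-26372089, minus strand). *Cldn4* (chr5:134946935-134947184, minus strand) and *Cldn3* (chr5:134985964-134986213, plus strand) are neighbors on chromosome 5. Capitals mark matches, on either strand, to AP-1 (TGANTCA), a Snail-type E-box (CAGGTG), a Grainyhead-like site (AACCGGTT), a GC box (GGGCGGG) or a TEAD site (GGAATG). No match of one motif overlapped a match of another in these windows.
Cldn1: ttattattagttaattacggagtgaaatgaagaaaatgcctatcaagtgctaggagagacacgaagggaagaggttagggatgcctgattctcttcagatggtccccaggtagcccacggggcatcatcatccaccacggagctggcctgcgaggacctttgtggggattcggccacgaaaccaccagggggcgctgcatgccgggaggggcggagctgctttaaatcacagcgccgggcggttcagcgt
Cldn4: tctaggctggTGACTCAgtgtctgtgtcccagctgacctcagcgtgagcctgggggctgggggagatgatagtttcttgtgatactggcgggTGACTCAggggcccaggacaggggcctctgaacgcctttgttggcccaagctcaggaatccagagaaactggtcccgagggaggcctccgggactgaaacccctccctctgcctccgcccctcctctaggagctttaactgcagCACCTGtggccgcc
Cldn3: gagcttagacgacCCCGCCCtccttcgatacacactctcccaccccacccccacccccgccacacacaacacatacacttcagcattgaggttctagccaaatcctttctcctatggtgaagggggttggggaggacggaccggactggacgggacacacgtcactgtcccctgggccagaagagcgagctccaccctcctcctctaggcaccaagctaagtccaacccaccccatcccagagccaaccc
The *Cldn4* window held 2 AP-1 matches, 240 and 158 bases before the start, and 1 E-box match 14 bases before it. The *Cldn1* window held no match to any of the 5 motifs, and the *Cldn3* window held 1 GC box match. Among 32851 promoters of the same length, 6.75% held an AP-1 match, 17.2% an E-box match, 23.4% a GC box match, 12.6% a TEAD match and 0.116% a Grainyhead-like match. Of the 9 genes, 8 had a promoter in the table, with 12 starts in all, and *F11r* was the only other one of the 8 with an AP-1 match. These are letter matches and not measured sites.

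In control corneal epithelium, *Cldn4* and *Cldn7* were the most abundant of the 9 transcripts. *Cldn4* (gene 12740), a sealing claudin that serves with claudin-3 as a receptor of a clostridial enterotoxin, stood at 657, 472 and 447 TPM in control replicates 1, 2 and 3. *Cldn7* (gene 53624), a claudin found along the lateral membrane as well, stood at 520, 522 and 482 TPM. The ranges of both genes overlapped, so their order was not resolved. *F11r* followed at 297 ± 4.73 TPM (SD, n = 3). *Tjp1* at 136 ± 3.55 and *Cldn23* at 135 ± 10.2 overlapped. *Cldn3* (84.1 ± 15.6), *Ocln* (44.4 ± 3.46), *Cldn1* (14.7 ± 0.736) and *Cldn12* (12.03 ± 0.346) came next, each with a range apart from its neighbor's. TPM is scaled for transcript length, so these levels can be set side by side between genes.

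**Figure D1:**
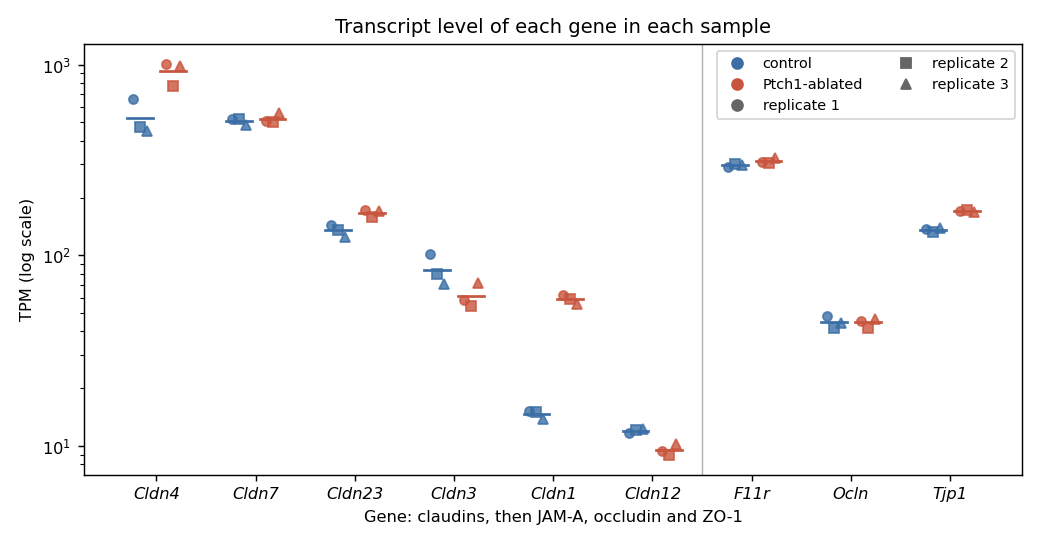
Transcript level of the 9 genes in each of the 6 samples, in TPM on a log axis, with claudins left of the line and *F11r*, *Ocln* and *Tjp1* right of it. Each point is a sample and each bar a group mean of 3. *Cldn1* moved from 13.9 to 15.3 TPM in control samples to 55.5 to 61.9 in Ptch1-ablated samples, past *Ocln*, while *Cldn7* and *Ocln* overlapped between the groups.

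*Cldn1* (gene 12737) encodes claudin-1, a sealing claudin that the epidermal water barrier requires. It stood at 15.3, 15.04 and 13.9 TPM in control replicates 1, 2 and 3 and at 61.9, 58.8 and 55.5 in Ptch1-ablated replicates 1, 2 and 3. Every Ptch1-ablated sample lay above every control sample, and the coefficient of variation was 4.99% in control and 5.42% in Ptch1-ablated samples. The fold change was 4.10 (log2 fold change 2.04, SE 0.10). It was the only one of the 9 with a fold change of at least 2. In the whole table, 2.34% of the tested genes were higher and 0.892% lower by that fold at an adjusted p of at most 0.05 in edgeR, and nothing is read from this count, since the genes were chosen on the same contrast. Without Ptch1-ablated replicate 1, which lay apart, the log2 fold change of *Cldn1* was 1.96. The level of *Cldn1* therefore rose in rank from the eighth to the seventh of the 9 genes, passing *Ocln* and reaching the range of *Cldn3*.

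*Cldn4* stood at 1013, 768 and 984 TPM in Ptch1-ablated replicates 1, 2 and 3. All of them exceeded the highest control sample, control replicate 1 at 657 TPM, although both groups were spread more widely than for *Cldn1*, with coefficients of variation of 21.8% and 14.5%. The log2 fold change was 0.85 (SE 0.19), or 1.80-fold. It was 1.07 without control replicate 1 and 0.74 without Ptch1-ablated replicate 1. On the TPM scale the mean level was 525 ± 115 (SD, n = 3) in control and 922 ± 134 in Ptch1-ablated samples, so *Cldn4* differed by more transcripts than *Cldn1* although its fold change was smaller.

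*Cldn23* (gene 71908), a claudin known from differentiated epithelial layers, stood at 145, 135 and 124 TPM in control samples and at 174, 159 and 170 in Ptch1-ablated samples. The groups did not overlap, and the log2 fold change was 0.35 (SE 0.09). *Cldn7* stood at 503, 500 and 557 TPM in Ptch1-ablated samples, within reach of its control values, with a log2 fold change of 0.07 (SE 0.07).

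*Cldn3* (gene 12739) and *Cldn12* (gene 64945) had values below 0. *Cldn3*, a sealing claudin close in sequence to claudin-4, stood at 101, 80.1 and 70.9 TPM in control samples and at 58.4, 54.1 and 71.7 in Ptch1-ablated samples. Ptch1-ablated replicate 3 fell within the control range, and the log2 fold change was -0.42 (SE 0.16). Control replicate 1 was the highest of the 6, and without it the value was -0.24. *Cldn12*, which lacks the usual PDZ-binding tail of claudins, stood at 11.7, 12.1 and 12.3 TPM in control samples and at 9.43, 8.93 and 10.3 in Ptch1-ablated samples. Here the groups did not overlap, and the log2 fold change was -0.30 (SE 0.08). Another gene on the opposite strand, *Wbscr25*, overlaps *Cldn3* in the GENCODE annotation, and whether the counting used strand is not given in the sources used here. *Tjp1* is also overlapped there, by *Gm44794* and *Gm44792* on its own strand and by *Gm44795* on the opposite strand.

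The non-claudin genes moved less than *Cldn1* and *Cldn4*. *Ocln* (gene 18260) stood at 48.2, 41.3 and 43.9 TPM in control samples and at 45.1, 41.7 and 46.6 in Ptch1-ablated samples, with overlapping groups and a log2 fold change of 0.02 (SE 0.09). Its sign changed when control replicate 2, control replicate 3 or Ptch1-ablated replicate 1 was left out. *F11r* (gene 16456) stood at 292, 301 and 297 TPM in control samples and at 310, 306 and 322 in Ptch1-ablated samples. The groups did not overlap, yet the log2 fold change was 0.12 (SE 0.06). *Tjp1* (gene 21872) stood at 137, 132 and 139 TPM in control samples and at 171, 172 and 169 in Ptch1-ablated samples, with no overlap and a log2 fold change of 0.37 (SE 0.07). Expected counts of *F11r* were not whole in 6 of 6 samples and those of *Ocln* in 4 of 6, so some of their reads were divided with other genes, whereas the 6 claudins and *Tjp1* had whole counts throughout.

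In sum over the 9 genes, normalized counts lay higher without overlap for 5, lower without overlap for 1 and overlapped for 3. Over all tested genes, the share was 19.7% higher and 20.3% lower without overlap. The median log2 fold change was 0.12 over the 9 genes and -0.01 over all tested genes. Both counts describe genes picked on this contrast.

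The claudins differed among themselves in how their level stood to that of the scaffold *Tjp1*. Summed over all claudins in the table, the ratio to *Tjp1* was 9.62 ± 1.18 (SD, n = 3) in control and 10.4 ± 1.06 in Ptch1-ablated samples, with overlapping values. The ratio of *Cldn1* to *Tjp1* TPM was 0.108 ± 0.00745 (SD, n = 3) in control and 0.344 ± 0.0167 (SD, n = 3) in Ptch1-ablated samples, and that of *Cldn4* to *Tjp1* was 3.86 ± 0.830 and 5.41 ± 0.816. For *Cldn4* the ratios overlapped, with control replicate 1 at 4.80 above Ptch1-ablated replicate 2 at 4.47. In the opposite direction, the ratio of *Cldn3* to *Tjp1* was 0.619 ± 0.115 in control and 0.360 ± 0.0573 in Ptch1-ablated samples, and that of *Cldn12* to *Tjp1* was 0.0884 ± 0.00327 and 0.0560 ± 0.00451. *Cldn7* to *Tjp1* went from 3.74 ± 0.248 to 3.05 ± 0.217. The TPM of *Cldn7* overlapped between the groups (log2 fold change 0.07), so this lower ratio came with the higher *Tjp1* (0.37). *Cldn23* kept pace with the scaffold, at 0.992 ± 0.0859 and 0.982 ± 0.0503 with overlapping values.

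The mixture of claudin transcripts was computed over the 23 claudins in the table, 6 of them described above. The 6 made up 97.7% to 98.6% of the summed claudin TPM in each sample. *Cldn4* held 44.3%, 37.4% and 38.0% of it in control replicates 1, 2 and 3, and 54.5%, 48.7% and 52.5% in Ptch1-ablated replicates 1, 2 and 3. *Cldn7* held 39.1% ± 3.50 (SD, n = 3) in control and 29.5% ± 2.31 in Ptch1-ablated samples. Thus control epithelium had about as much *Cldn4* as *Cldn7* (ratio of TPM 1.03 ± 0.200, SD, n = 3), and Ptch1-ablated epithelium had more *Cldn4* (1.77 ± 0.238). The TPM of *Cldn7* itself overlapped between the groups (log2 fold change 0.07), so its lower share went with a larger claudin sum. *Cldn1* held 1.13% ± 0.0906 in control and 3.34% ± 0.382 in Ptch1-ablated samples, so that claudin-1 transcripts were a small part of the mixture in both. *Cldn3* went from 6.40% ± 0.406 to 3.47% ± 0.341. The level of *Cldn1* relative to *Cldn3* was 0.178 ± 0.0241 in control and 0.974 ± 0.173 in Ptch1-ablated samples. The summed claudin TPM was 1484, 1263 and 1177 in control samples and 1858, 1577 and 1874 in Ptch1-ablated samples. Without *Cldn4*, the sum was 783 ± 48.6 in control and 848 ± 41.0 in Ptch1-ablated samples, and control replicate 1 (827) lay above Ptch1-ablated replicate 2 (808).

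**Figure D2:**
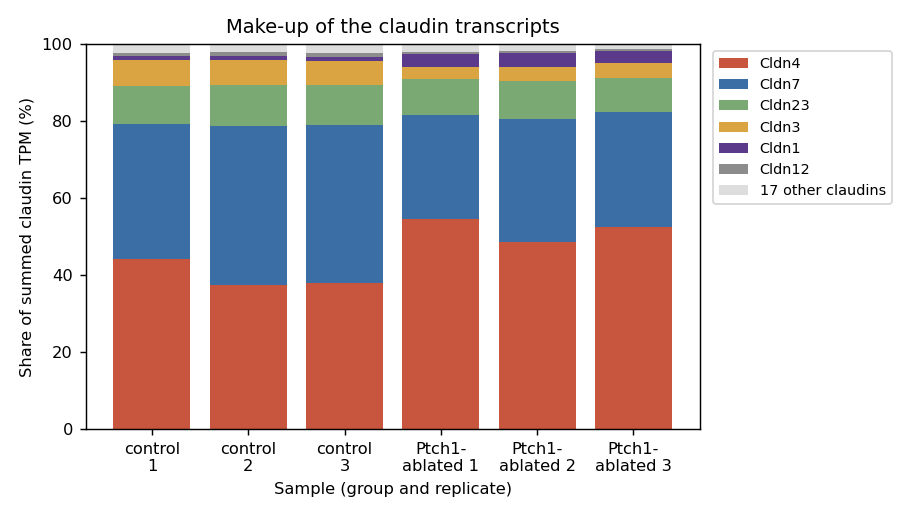
Share of each claudin in the summed claudin TPM of each sample, as stacked percentages for 3 control and 3 Ptch1-ablated samples. *Cldn4* took 37.4% to 44.3% in control and 48.7% to 54.5% in Ptch1-ablated samples, and *Cldn7* and *Cldn3* took less in every Ptch1-ablated sample than in any control sample. The TPM of *Cldn7* itself overlapped between the groups.

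The gene structures differ within this set. In GENCODE vM21, *Cldn3*, *Cldn4* and *Cldn23* are encoded by 1 exon, *Cldn1* and *Cldn7* by 4 exons with 633 coding bases each, and *Cldn12* has its 732 coding bases in 1 of 5 exons. *Tjp1*, by contrast, has 5235 coding bases in 28 exons. The genes with 1 coding exon, *Cldn4*, *Cldn23*, *Cldn12* and *Cldn3*, had log2 fold changes of 0.85, 0.35, -0.30 and -0.42, with no common direction. A link between structure and fold change was not tested.

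The other claudins were looked up from a list of 28, of which 17 were in the table and the other 11 were not analysed here. Of the 17, 14 had a mean below 1 TPM in both groups, with no sample above 0.73 TPM, and 2 were tested. *Cldn8*, best known from the kidney collecting duct, where it acts with claudin-4, was lower in Ptch1-ablated samples. It stood at 4.42, 3.59 and 4.52 TPM in control samples and at 1.72, 1.51 and 1.96 in Ptch1-ablated samples, so every Ptch1-ablated sample lay below every control sample. Its log2 fold change was -1.23 (SE 0.19, adjusted p = 0.0125, edgeR's quasi-likelihood test). The adjusted p was 0.0562 without control replicate 2 and at most 0.0427 in the other 5 fits that left out a sample. *Cldn17*, an anion-selective claudin, was the fifth most abundant claudin in control samples, at 26.5, 20.02 and 19.2 TPM. It stood at 34.7, 24.8 and 22.2 TPM in Ptch1-ablated samples, the groups overlapped, and the adjusted p was 0.308 in edgeR. *Cldn20* had 6, 11 and 14 counts in control samples and 0, 6 and 4 in Ptch1-ablated samples, too few to be tested.

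The remaining components of the junction were examined in 9 lists of 122 genes, the other claudins included and the 9 genes above left out. Of the 80 tested genes, 1 was higher and 1 lower with a fold change of at least 2, *Cdh3* and *Cldn8*. With no minimum fold change, 11 were higher and 2 lower at an adjusted p of at most 0.05 in edgeR, which is 13.8% and 2.50% of the 80. Over all tested genes those shares were 7.61% and 6.41%. The lists were chosen with earlier results of these data known, so these shares are set side by side as a description only. The median log2 fold change of the 80 was 0.09, against -0.01 over all tested genes. Without control replicate 2, the same test gave 0 higher and 0 lower, with 17 higher and 4 lower at an unadjusted p under 0.05. The share of all tested genes at that unadjusted p was not computed, so nothing is read from the unadjusted counts. Leaving out Ptch1-ablated replicate 2, control replicate 1 or control replicate 3 gave 4, 6 and 5 higher, and leaving out any single sample gave at most 1 lower. *Cgnl1*, *Pard6b*, *Llgl2*, *Prkcz*, *St14*, *Grhl3* and *Vcl* are named below after their values were seen, because they belong to these small counts.

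**Figure D3:**
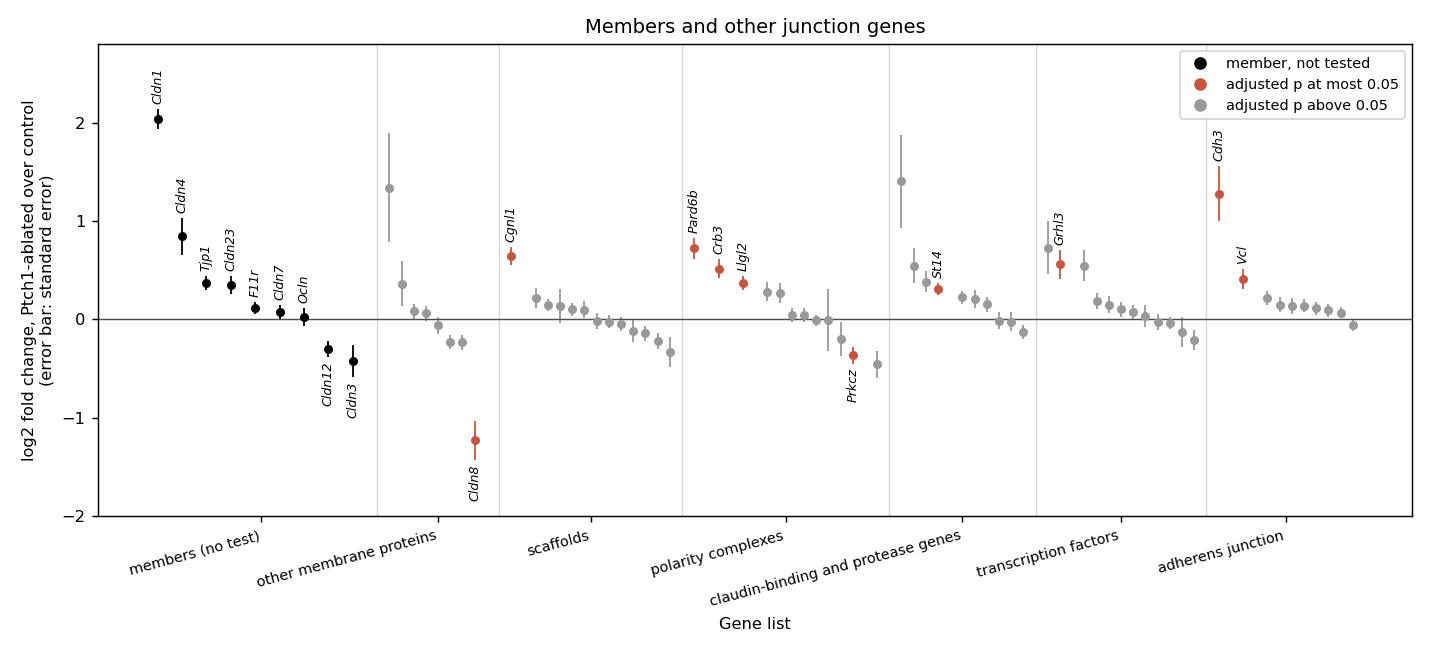
Log2 fold change, Ptch1-ablated over control, of the 9 genes (black, not tested) and of 65 of the 80 other tested junction genes, grouped by list, with standard errors. Red points passed an adjusted p of at most 0.05 in edgeR. Most of the 65 lie near 0, *Cldn8* (-1.23) and *Cdh3* (1.28) lie farthest out among those that passed, and *Cldn1* (2.04) lies above all of them.

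Among the scaffolds, *Cgnl1*, which encodes paracingulin, was higher in Ptch1-ablated samples. It stood at 39.6, 38.6 and 43.7 TPM in control samples and at 66.3, 60.2 and 58.2 in Ptch1-ablated samples, with no overlap. Its log2 fold change was 0.65 (SE 0.09, adjusted p = 0.0110, edgeR), beside 0.37 for *Tjp1*, and it passed in 5 of the 6 fits that left out a sample. *Tjp3*, which encodes ZO-3, stood at 249, 300 and 296 TPM in control and at 214, 232 and 258 in Ptch1-ablated samples (log2 fold change -0.22, adjusted p = 0.0951, edgeR). *Afdn* (0.10) and *Ybx3* (-0.02), which encode afadin and a transcription factor that ZO-1 binds, had adjusted p of 0.352 and 0.848.

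No gene of tricellular contacts or of the JAM family passed the edgeR test, with or without a minimum fold, and DESeq2 and limma-voom also called 0. At an unadjusted p under 0.05, 0 of 4 tested tricellular and MARVEL genes were higher and 2 lower, and 1 of 2 tested genes of the JAM list was higher. Nothing is read from these counts, since the share of all tested genes at that p was not computed. Angulin genes *Lsr* and *Ildr1*, which recruit tricellulin, had log2 fold changes of 0.08 and -0.23, tricellulin (*Marveld2*) -0.23 and *Marveld3* -0.06. *Ildr1* and *Marveld2* lay lower without overlap (adjusted p = 0.0675 and 0.0796, edgeR), as did 20.3% of all tested genes, and *Lsr* and *Marveld3* overlapped. *Cxadr*, a virus receptor of the junction, had 0.06. *Jam3*, at 0.21 to 0.71 TPM in control and 0.62 to 1.32 in Ptch1-ablated samples, had 1.34 (SE 0.55, adjusted p = 0.138, edgeR). *Esam* and *Clmp* stayed at or below 0.28 TPM and were not tested.

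The polarity complexes, which position the junction along the cell side, held 3 higher and 1 lower genes among 12 tested. *Pard6b* of the Par complex had a log2 fold change of 0.72 (SE 0.11, adjusted p = 0.0112, edgeR), from 46.4 to 56.0 TPM in control samples to 78.5 to 86.6 in Ptch1-ablated samples. *Crb3*, an apical determinant, had 0.52 (adjusted p = 0.0191, edgeR), and *Llgl2*, a lateral determinant, 0.37 (adjusted p = 0.0207, edgeR). Of the 6 fits that left out a sample, *Pard6b* passed in 5, *Crb3* in 4 and *Llgl2* in 3. *Prkcz*, an atypical protein kinase C of the Par complex, had -0.37 (adjusted p = 0.0317, edgeR), and this passed in 0 of the 6 fits that left out a sample. Its relative *Prkci* (0.04), *Pard3* (0.04) and *Pard6g* (-0.01) had adjusted p of 0.695 to 0.931.

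Of 11 tested claudin-binding and barrier protease genes, 1 was higher and 0 lower. *St14*, which encodes the protease matriptase, had a log2 fold change of 0.31 (SE 0.06, adjusted p = 0.0210, edgeR) and passed in 2 of the 6 fits that left out a sample. *Cd9* (0.22), *Spint2* (-0.13) and *Spint1* (-0.02) did not pass.

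Of 12 tested transcription factors known to act on junction genes, 1 was higher and 0 lower. *Grhl3*, a Grainyhead-like factor of surface barriers, had a log2 fold change of 0.56 (SE 0.15, adjusted p = 0.0480, edgeR) and passed in 0 of the 6 fits that left out a sample. *Klf4* (0.19), *Elf3* (0.15), *Ehf* (-0.04) and *Klf5* (0.07), the most abundant of the list, did not pass. Of the repressors of claudin genes in the list, named here after their values were seen, *Snai2* stood at 16.5, 26.4 and 25.1 TPM in control and at 33.2, 31.9 and 30.7 in Ptch1-ablated samples, with no overlap (log2 fold change 0.54, SE 0.16, adjusted p = 0.0587, edgeR). *Snai1*, *Zeb1* and *Zeb2* stood at 1.36 TPM or less in every sample and were not tested.

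In the adherens junction below the tight junction, 2 of 10 tested genes were higher and 0 lower. *Cdh3*, which encodes P-cadherin of basal epithelial cells, stood at 6.06, 5.06 and 8.50 TPM in control and 19.9, 10.2 and 15.9 in Ptch1-ablated samples. Its log2 fold change was 1.28 (SE 0.28, adjusted p = 0.0281, edgeR), and it passed in 3 of the 6 fits that left out a sample, with the highest adjusted p, 0.111, without control replicate 2. *Vcl*, which encodes vinculin, had 0.41 (adjusted p = 0.0415, edgeR) and passed in 1 of the 6 fits. *Jup* (0.15), *Ctnna1* (0.22), *Ctnnb1* (0.11) and *Nectin4* (-0.06) did not pass.

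Marker genes that varied between samples are set beside the 2 claudins with the highest fold changes. The conjunctival keratin *Krt4* stood at 105, 152 and 223 TPM in control replicates 1, 2 and 3 and at 898, 170 and 528 in Ptch1-ablated replicates 1, 2 and 3, and the limbal keratin *Krt15* at 847, 1097 and 1528 and at 3296, 1066 and 2257. Over the 6 of 7 conjunctival markers in the table, the summed TPM ran from 2415 to 3449 in control and from 3679 to 6282 in Ptch1-ablated samples. By the edgeR test, 1 of these 6 was higher and 1 lower at an adjusted p of at most 0.05. The mucin gene *Muc4* had a log2 fold change of 0.50 (adjusted p = 0.0298, edgeR), and the keratin *Krt8*, at 11.98 to 15.6 TPM in control and 5.90 to 7.96 in Ptch1-ablated samples, had -0.91 (adjusted p = 0.0139, edgeR). *Krt4* itself did not pass (adjusted p = 0.0685, edgeR), and *Muc4* and *Krt13* made up most of the sum. Over 4 of 5 limbal markers the summed TPM ran from 1028 to 2110 and from 1629 to 3675, with overlap. *Muc5ac* and *Abcb5* were not analysed here. In Ptch1-ablated replicate 2, *Krt4* and *Krt15* lay within the control range, while *Cldn1* (58.8 TPM) and *Cldn4* (768 TPM) lay above it. Other conjunctival values of that replicate lay outside the control range, with *Muc4* (1469 TPM) and the conjunctival sum (3679) above it and *Krt8* (7.96 TPM) below it. Within the Ptch1-ablated group, *Cldn4* ran in the same order as *Krt4* (replicates 1, 3, 2), and within the control group in the reverse order. Among 4 tested epidermal markers, 2 were higher with a fold of at least 2, *Ivl* (log2 fold change 1.06, adjusted p = 0.0212, edgeR) and *Flg* (at 0.10 TPM or less). *Krt1*, a keratin of differentiated epidermis, was lower, at 4.55 to 5.30 TPM in control and 2.58 to 3.68 in Ptch1-ablated samples (log2 fold change -0.64, adjusted p = 0.0401, edgeR). All but 1 of the 20 immediate early genes, which respond quickly to stimuli and handling, had a log2 fold change above 0, and 15 were higher at an adjusted p of at most 0.05. Their summed TPM ran from 1623 to 1989 in control and from 3761 to 4395 in Ptch1-ablated samples, a group difference in the same direction as for *Cldn1* and *Cldn4*. Within the Ptch1-ablated group the sum was 4394, 4395 and 3761 in replicates 1, 2 and 3, which is not the order of *Cldn4*. *Cldn1*, at 61.9, 58.8 and 55.5 TPM in these replicates, was lowest in replicate 3, as the sum was. The part of conjunctival, limbal or immediate early expression in the claudin values was not tested.

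**Figure D4:**
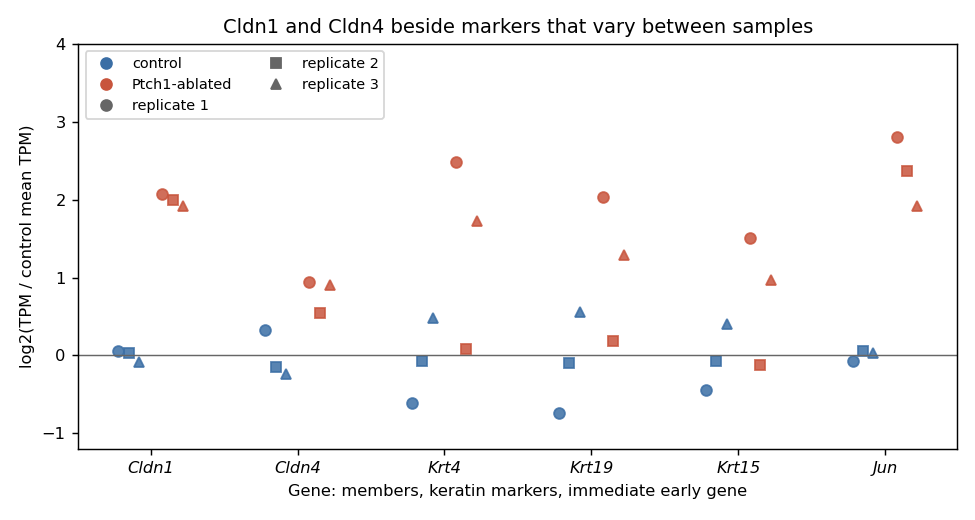
Log2 of TPM over the control mean for *Cldn1*, *Cldn4*, the keratin markers *Krt4*, *Krt19* and *Krt15*, and the immediate early gene *Jun* in each sample, with the last 4 chosen for the plot after their values were seen. The 3 Ptch1-ablated samples lie close together for *Cldn1* and spread widely for the keratins, where replicate 2 (squares) lies among the control samples.

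The tested genes whose pattern over the 6 samples was most like that of *Cldn1* were *Pola2*, *Gmppb*, *Map4*, *Itga6* and *H60c*. Their Pearson r with *Cldn1* on log2 normalized counts ran from 0.995 to 0.997 among the 10323 genes whose normalized count averaged 100 or more. With 3 samples on either side of a gap, such an r describes mainly the difference between the groups, and their own log2 fold changes ran from 0.34 to 3.11.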

How the data were processed

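Bulk RNA-seq of 3 Ptch1-ablated and 3 control samples of corneal epithelium was analysed. Per the study's methods, the authors depleted rRNA, sequenced DNA nanoballs and aligned reads with Bowtie2 2.2.5, while the labels name an Illumina kit. RSEM 1.2.12 gave the deposited expected counts (not scaled for depth) and the TPM and FPKM values, which the authors scaled for length and depth. The submitters' processing notes list mm9. FPKM values and the authors' group means were not used. Of the expected counts above 0, 39.4% were not whole within 0.005.

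Expected counts were rounded and tested with edgeR 4.0.16 (quasi-likelihood, TMM factors 0.960 to 1.03, filterByExpr) in R 4.3.3, with Benjamini-Hochberg adjustment over 12999 genes. The study's thresholds, a 2-fold change with an adjusted p no higher than 0.05, were applied, and also that p with no minimum fold. Standard errors are the absolute log2 fold change over the square root of F. Normalized counts are counts on TMM-scaled library sizes times their mean. With 20296741 to 20625813 counts a sample, 3 counts are 0.145 to 0.148 CPM, for counting error only. The labels do not say whether samples came from separate animals (the study calls them biological replicates), so p-values measure the spread between these samples.

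The 9 genes and all lists were chosen with earlier results of these data known. Named by rule were the 9 genes, *Ptch1*, other claudins at a mean of 1 TPM or more in a group, called genes and the 4 most abundant of each junction list, the first 2 and any called genes of marker lists, and the 5 genes most like *Cldn1*. Some marker genes of the rule are given only within summed levels, and a few genes and 1 junction list are counted in the totals but not reported here. Alternatives were DESeq2 1.42.0, limma 3.58.1 (voom, and log2 of TPM + 1 or TPM + 0.1, at a mean TPM of at least 1 or unfiltered), other size factors and filters, a replicate block and each sample left out. The procedure was tested on simulated data. Promoters are RefSeq on GRCm38.p6 and exons GENCODE vM21, and no coordinate was carried to mm9. Protein sequences are not shown.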

Additional observations from a re-analysis of the deposited data

How the results depend on the processing

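The log2 fold changes of the 9 genes moved by less than 1 SD of their samples under every alternative, and only *Ocln* changed sign, in 3 fits that left out a sample. Called genes numbered 420 (304 higher, 116 lower), and 1822 (989 and 833) with no minimum fold change, 234 (165 and 69) with limma on log2(TPM + 1), and 163 (119 and 44) with the same and no TPM filter. Leaving out 1 sample gave 59 to 430 (45 to 298 higher, 14 to 132 lower), the lowest without control replicate 2. Of the other junction genes, 2 were called at a fold of at least 2, and 13 with no minimum fold, 1 and 0 with limma on log2(TPM + 1) with and without the TPM filter, and 0 to 3 when a sample was left out. At an adjusted p of at most 0.05, 11 were higher and 2 lower, against 17 higher with DESeq2, 5 higher with the unfiltered log2(TPM + 1), 1 lower with limma on log2(TPM + 1) or log2(TPM + 0.1), and 0 to 9 higher and 0 to 1 lower when a sample was left out. The cause was not tested.

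Without length scaling, on normalized counts, the share of *Cldn4* was 45.6% in control and 56.0% in Ptch1-ablated samples, that of *Cldn7* 30.9% and 22.0%, and that of *Cldn1* 2.35% and 6.52%. Unscaled counts weight longer transcripts more by construction, and all 3 differences kept their direction.

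Deviations from the group mean in same-numbered samples of the 2 groups had correlations across genes of 0.102, -0.0366 and 0.0107. Those of differently numbered samples ran from -0.182 to 0.189. With 3 samples a group these values cannot decide whether the samples were paired, which is not known. With the replicate number as a block, 390 genes were called (278 higher, 112 lower), and 2 of the other junction genes, with 14 higher and 2 lower at no minimum fold.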
